A study of Mus musculus with 6 samples.

Results

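Aquaporins are the membrane channels through which water, and in some members glycerol, crosses cells. The genes described here are 7 mouse aquaporins, Aqp1, Aqp3, Aqp4, Aqp5, Aqp7, Aqp9 and Aqp11, taken by symbol from a gene table of 28539 loci, of which 23889 carry a gene symbol. Each of the 7 was found as 1 locus of its own. FPKM (a level corrected for transcript length and sequencing depth) reached at least 1 in some group for 5 of them, while Aqp7 and Aqp11 stayed under 1 in every group. In brief, Aqp5 was far lower after the burn and partly higher again at day 15, Aqp1 was lower at both times, Aqp4 appeared after the burn from almost no signal, and Aqp3 remained the most abundant aquaporin with intervals that overlapped throughout.

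The channel family works as tetramers in which every subunit has its own water pore. In the cornea, Aqp5 is known as the water channel of the epithelium, Aqp3 as a water and glycerol channel of epithelial cells, and Aqp1 as the channel of stromal keratocytes and of the inner endothelial layer, whose ion transport draws water out of the stroma. Aqp4 is best known from the glia of brain and retina and from fast muscle fibres, Aqp7 from fat cells, Aqp9 from liver and white blood cells, and Aqp11 from membranes inside the cell.

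RNA-seq of poly(A) cDNA measured whole corneas of female C57BL/6J mice, 6 to 8 weeks old per the labels, in 3 groups of 2 samples each. The first group was untreated (day 0), and the others had an alkali burn, an injury that brings blood vessels into the clear cornea, and were sampled at day 5 or day 15. The extraction protocol speaks of the later time as regression. The labels name no genotype other than the strain, and they leave unstated if samples of a group are separate animals and how many corneas each holds.

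The values are the authors' FPKM, with 1 value per group pooled over its samples and an interval around it, so that replicate spread is not known here and differences are described without a test or p-value. Ranges in parentheses are the authors' intervals. A locus is called apart between groups when the intervals do not overlap, the log2 ratio of (FPKM + 1) is at least 1 in size and FPKM is at least 1 in the higher group. A locus under FPKM 1 in 1 group is compared only if the other group reaches 1, which fixes its direction. Counts of markers apart are to be read beside the shares over all loci, given below for each comparison. Read depth is unknown. Among loci with FPKM of at least 5, the intervals reached a median of 54.3% of the value to either side at day 0, 52.9% at day 5 and 52.3% at day 15. Genes of the cornea were present at day 0, with Aldh3a1, an abundant enzyme of the mouse corneal epithelium, at an FPKM of 9150 and Kera, a core protein of stromal keratan sulfate, at 516. Krt12, the main corneal keratin, had no usable day 0 value, because its status there was not OK, and stood at 6.81 (1.34 to 12.3) at day 5 and 9.67 (2.70 to 16.6) at day 15. In whole tissue, fewer cells of a type and less RNA per cell cannot be told apart.

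The promoters of the members that were lower after the burn, Aqp5 and Aqp1, are printed here beside that of Aqp3, which was not apart, and of Aqp2, the kidney collecting duct channel whose locus lies next to Aqp5. The sequences are from RefSeq (GRCm38.p6), and 6 of the 7 members matched the promoter table used here (all but Aqp4). Each sequence runs 5′ to 3′ on the gene's strand, from 250 bases before to 50 bases after the transcript's start. Capitals mark matches on either strand to 4 motifs. The TATA box was searched as TATAAA. The GC box was searched as GGGCGG. The box bound by Krüppel-like factors was searched as CACCC, and the core of the hypoxia element as ACGTG. The Aqp5 promoter is chr15:99590778-99591077, plus strand. That of Aqp2 is chr15:99578806-99579105, plus strand. That of Aqp1 is chr6:55336049-55336348, plus strand, and that of Aqp3 is chr4:41098134-41098433, minus strand. For Aqp5 and Aqp1 these RefSeq starts differ from the gene starts in GENCODE M21. GENCODE starts Aqp5 at 99590782, so that nearly all of the Aqp5 window lies inside the gene annotated there. It starts Aqp1 at 55336432, after the end of the Aqp1 window.
Aqp5: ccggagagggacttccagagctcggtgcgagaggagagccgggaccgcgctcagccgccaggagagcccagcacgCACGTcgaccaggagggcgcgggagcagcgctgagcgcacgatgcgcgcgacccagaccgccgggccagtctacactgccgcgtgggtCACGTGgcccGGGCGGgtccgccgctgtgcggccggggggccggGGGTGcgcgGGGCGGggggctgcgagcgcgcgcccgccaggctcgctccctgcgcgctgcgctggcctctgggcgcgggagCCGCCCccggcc
Aqp2: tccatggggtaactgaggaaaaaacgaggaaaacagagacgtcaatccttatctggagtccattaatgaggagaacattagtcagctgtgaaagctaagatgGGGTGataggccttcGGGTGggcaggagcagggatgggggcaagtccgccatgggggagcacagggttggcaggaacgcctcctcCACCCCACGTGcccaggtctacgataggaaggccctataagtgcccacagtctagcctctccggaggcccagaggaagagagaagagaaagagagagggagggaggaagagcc
Aqp1: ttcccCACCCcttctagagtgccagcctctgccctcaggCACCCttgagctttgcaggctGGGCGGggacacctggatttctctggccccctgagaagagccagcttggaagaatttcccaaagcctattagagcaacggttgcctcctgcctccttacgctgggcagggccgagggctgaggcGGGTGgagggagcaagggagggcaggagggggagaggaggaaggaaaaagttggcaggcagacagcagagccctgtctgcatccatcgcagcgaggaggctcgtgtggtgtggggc
Aqp3: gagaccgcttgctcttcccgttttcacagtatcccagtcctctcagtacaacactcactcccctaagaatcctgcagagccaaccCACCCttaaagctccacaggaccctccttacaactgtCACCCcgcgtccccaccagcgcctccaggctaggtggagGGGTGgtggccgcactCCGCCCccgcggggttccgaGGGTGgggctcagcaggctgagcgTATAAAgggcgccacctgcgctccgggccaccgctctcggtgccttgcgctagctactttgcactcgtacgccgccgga
The Aqp5 window held 3 GC boxes, 1 CACCC match and 3 ACGTG matches, of which the pair starting at -87 and -86 from the transcript's start overlaps on opposite strands. The Aqp2 window held 3 CACCC and 2 ACGTG matches, the latter overlapping in the same way at -58 and -57, and no GC box. Aqp1 had 1 GC box and 3 CACCC matches, and Aqp3 had 1 GC box, 4 CACCC matches and, alone among the 4, a TATA box at -29. Over 32851 promoters of this length, 13.6% held the TATA box, 35.7% the GC box, 57.5% the CACCC box and 19.6% the hypoxia element core. Their median GC content was 52.7%, against 79.7% for Aqp5, 56.0% for Aqp2, 62.7% for Aqp1 and 64.0% for Aqp3. These are matches of letters in a window and say nothing of binding.

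Day 5 was set against day 0 to describe the burned cornea soon after injury. Of the 7 aquaporins, 5 could be compared at FPKM of at least 1: Aqp4 was higher and apart, Aqp5 and Aqp1 were lower and apart, and Aqp3 and Aqp9 were not apart. Over all 15576 loci compared in the same way, 3.42% were higher and apart and 2.5% lower and apart, 5.92% in all. The members went in opposite directions: their median log2 ratio was 0.05 over all 7, beside -0.09 over all loci compared, and the range ran from -5.32 for Aqp5 to 5.34 for Aqp4. Only 20 loci had a lower ratio than Aqp5 and 16 a higher ratio than Aqp4.

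Day 15 was set against the same day 0 samples. Again Aqp4 was higher and apart, Aqp5 and Aqp1 were lower and apart, and Aqp3 and Aqp9 were not apart. The background among 15186 loci was 2.91% higher and apart and 1.81% lower and apart, 4.72% in all. The median over the 7 members was 0.09, beside -0.10 over all loci compared, with a range from -3.34 to 5.08. Between the burned groups, day 15 against day 5, Aqp5 was the only member apart, and it was higher at day 15, where 0.395% of 14683 loci were higher and apart and 0.388% lower and apart, 0.783% in all.

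**Figure D1:**
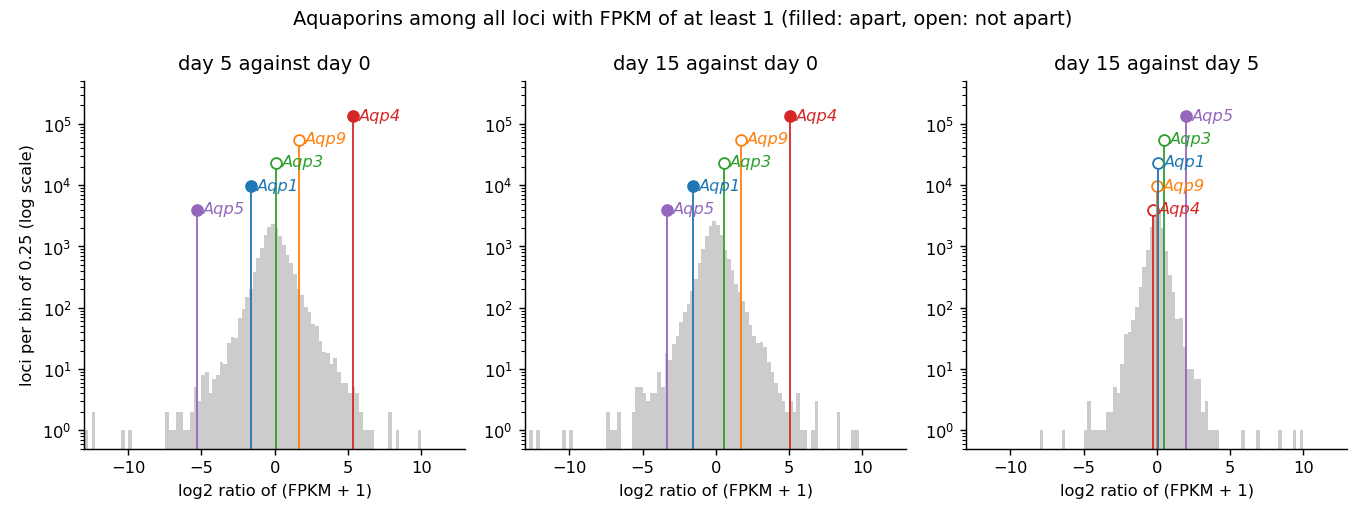
Log2 ratio of (FPKM + 1) of the 5 aquaporins with FPKM of at least 1 (coloured stems, whose height carries no value) over the distribution of all loci compared (grey, counts on a log axis), for the 3 comparisons. Filled heads are members apart and open heads members not apart: Aqp5 and Aqp4 stand at opposite ends in the comparisons with day 0, and only Aqp5 is apart between days 15 and 5.

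Aqp5 had an FPKM of 1062 (338 to 1786) at day 0, 25.6 (10.9 to 40.2) at day 5 and 104 (56.0 to 152) at day 15. Day 0 was high and the burned groups were low, and the 3 intervals did not overlap with one another. Aqp5 went from place 89 among the loci with a symbol to place 3001 and then place 859. It was 41.5-fold lower at day 5 than at day 0, and the nearest bounds of the intervals were still 8.40-fold from each other, the farthest 164-fold. At day 15 it was 10.2-fold lower than at day 0 (bounds 2.23-fold to 31.9-fold), with a log2 ratio of -3.34. From day 5 to day 15 it was 4.06-fold higher (bounds 1.39-fold to 13.9-fold), a log2 ratio of 1.98. The annotated gene lies on chromosome 15, 99590782 to 99594829 on the plus strand (mm10, GENCODE M21), with up to 5 exons, and the authors' locus (99591028 to 99596801) spans 1.43 times that length.

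Markers of the corneal epithelium went in both directions in the same samples. Of 6 usable markers, 2 were lower and apart at day 5, Aldh3a1 and Upk1b, a tetraspanin of surface epithelium, and none was higher and apart, while at day 15 none was apart in either direction. Upk1b had values of 995 (447 to 1542) at day 0, 103 (61.2 to 146) at day 5 and 370 (193 to 547) at day 15. Like Aqp5, it was higher and apart at day 15 against day 5. Krt15, a keratin of basal cells, was at 2435 (497 to 4372), 2974 (544.5 to 5403) and 4877 (0 to 10072), and Krt14, another keratin of basal cells, at 180 (92.4 to 267), 500.2 (153 to 847) and 760 (205 to 1315). Neither was apart, although both values were higher after the burn. The other 4 usable markers had lower values than day 0 at both times. Among them, Krt5 was at 1199 (0 to 2445), 590 (175 to 1005) and 796 (95.2 to 1498). Pax6 was at 128 (119.5 to 136), 63.6 (40.75 to 86.5) and 107.5 (72.0 to 143). The Pax6 intervals of days 0 and 5 did not overlap, but its log2 ratio of -0.997 fell just short of the limit. The summed FPKM of the 6 was 14085 at day 0, 4534 at day 5 and 7776 at day 15, a difference made mostly by Aldh3a1: the other 5 summed to 4936, 4231 and 6911. Aqp5 is also known from lens and glands. Of 8 lens markers compared at day 5, 5 were lower and apart, all crystallins, and the lens sum was 397, 53.4 and 265. The 4 usable markers of gland acini summed to 0.833, 1.06 and 1.99, with Prol1 at 0 in every group and Pip at 0 at days 0 and 5. The part of these tissues in the Aqp5 difference was not tested.

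Some of the loci around Aqp5 were lower and apart with it, a direction that the limit on low values fixed for them, as set out below. Aqp2, Aqp5 and Aqp6 lie in a row on chromosome 15, with 3352 bases between the loci of Aqp2 and Aqp5 and 4598 between those of Aqp5 and Aqp6. Aqp2 is given on 2 loci of identical span, and the table does not give their strand. The first was at 4.25 (0.512 to 7.99) at day 0, 0.161 (0 to 0.494) at day 5 and 0.178 (0 to 0.515) at day 15. It was lower and apart at day 5, where it was 26.5-fold lower, and just overlapped at day 15. The second was at 2.05 (0 to 4.33), 0.0601 and 0.203 and was not apart. Aqp6, a channel of vesicles in kidney cells, was listed at 0 in every group.

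A locus without a symbol just before Aqp5 (99588094 to 99590940) was at 7.28 (3.22 to 11.3) at day 0, 0.213 (0 to 0.520) at day 5 and 0.653 (0 to 1.34) at day 15. It ends 87 bases before the authors' Aqp5 locus and shares 159 bases with the start of the annotated Aqp5 gene. Another without a symbol, 423 bases after the locus (99597225 to 99598823), was at 4.04 (0.879 to 7.20), 0.211 (0 to 0.542) and 0.381 (0 to 0.869). Both were lower and apart at days 5 and 15, by 34.2-fold and 19.1-fold at day 5, and stood at 0.685% and 0.380% of the Aqp5 value at day 0. Of the 7 other loci within 50 kb that could be compared, 3 were lower and apart at day 5 and 2 at day 15. For 6 of the 7, FPKM reached 1 at day 0 only, so that a lower value after the burn was fixed by the limit on low values and their number says nothing more. The remaining locus, Racgap1, a gene of cell division, was at 10.3, 9.58 and 7.86 and was not apart. Whether these low values are transcripts of their own or fragments of Aqp5 transcripts was not tested. Around Aqp1, Aqp3, Aqp4, Aqp7 and Aqp11, none of the loci within 50 kb that could be compared was apart in any comparison, and the neighbours of Aqp9 were too low to compare.

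**Figure D2:**
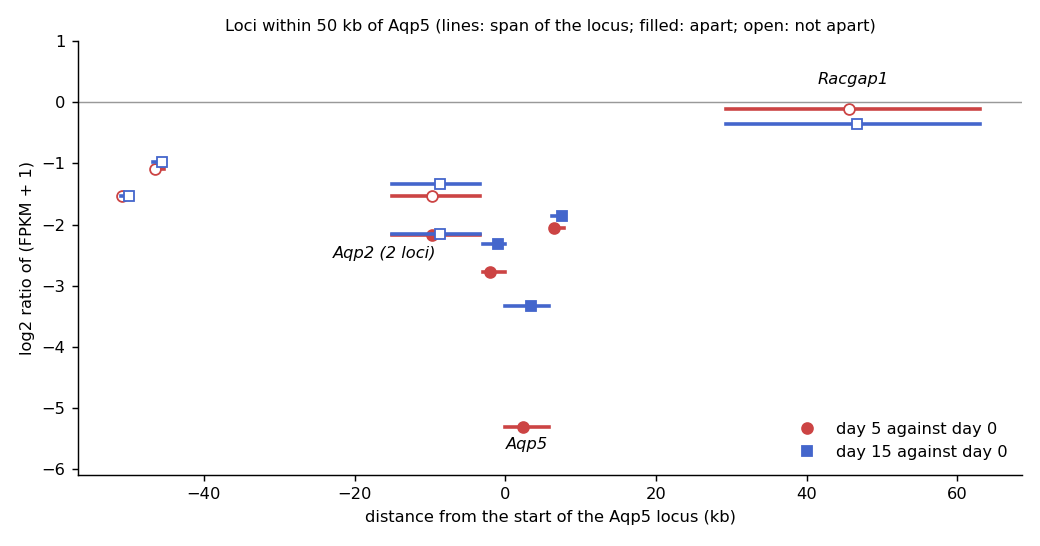
Log2 ratio of (FPKM + 1) of each locus with FPKM of at least 1 against its distance in kb from the start of the Aqp5 locus, for day 5 (circles) and day 15 (squares) against day 0. Horizontal lines are the span of each locus and filled symbols are loci apart: Aqp5 lies lowest at -5.32 and -3.34, its flanking loci and Aqp2 lie below -1, and Racgap1 lies near 0. For all neighbours shown but Racgap1, 6 of 7, FPKM reached 1 at day 0 only, so that a ratio under 0 was fixed by the limit on low values.

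Aqp1 had an FPKM of 157 (88.7 to 225) at day 0, 50.5 (28.0 to 73.0) at day 5 and 51.9 (28.6 to 75.2) at day 15. Day 0 was high, and the burned groups were close to each other, with a 1.03-fold difference. It was 3.1-fold lower at day 5, and the nearest bounds were only 1.22-fold from each other, the farthest 8.03-fold. At day 15 it was 3.02-fold lower (bounds 1.18-fold to 7.85-fold), with log2 ratios of -1.62 and -1.58. The gene lies on chromosome 6, 55336432 to 55348555 on the plus strand, with 4 exons, and the authors' locus begins somewhat before it, at 55336171.

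Markers of the cells known to carry Aqp1 went in different directions. Of 5 keratocyte markers, Kera, the sulfotransferase gene Chst5 and the prostaglandin D synthase gene Ptgds were lower and apart at day 5, and Kera and Chst5 at day 15. The sum of the 5 was 4379 at day 0, 1655 at day 5 and 2463 at day 15, most of it the proteoglycan gene Dcn (3484, 1388 and 2104, not apart). Lum, the remaining marker, was slightly higher in value after the burn, at 237 (129 to 346), 243.5 (128 to 359) and 286 (120 to 452), and was not apart. Of 5 markers of the corneal endothelium, Slc4a11, a transporter of that layer, was lower and apart at both times, and Col8a1, a collagen of its basement membrane, was higher and apart at both times, while the sum was 203, 232 and 201. Blood vessel markers stood higher while Aqp1 stood lower: Pecam1, Cdh5 and Emcn, all genes of vessel endothelium, were higher and apart among 5 at both times, and the sum was 12.8, 60.4 and 61.5. Globin loci were higher too, 4 of 5 red blood cell loci compared being higher and apart at day 5 and 3 at day 15, with sums of 18.0, 323 and 116. The other locus of that list that was compared, Alas2, was at 8.27 (1.23 to 15.3), 5.79 (1.19 to 10.4) and 4.01 (0.501 to 7.52), lower in value but not apart. Slc4a1, the anion exchanger of red cells, was at 0, 0.0231 and 0.00481, too low to be compared. Of 6 pigment cell markers, Tyrp1 was lower and apart at day 5, and the sum was 364, 85.1 and 250. The ciliary epithelium of the eye also expresses Aqp1. The part of each cell type in the Aqp1 difference was not tested.

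Among 7 genes of endothelial ion and fluid transport, Slc4a11 was lower and apart at both times, from 56.0 (7.51 to 104) at day 0 to 3.10 at day 5 and 1.04 at day 15, where 54.0-fold separated it from day 0. Car2, the carbonic anhydrase that speeds bicarbonate exchange, was at 2.41 (0 to 5.15), 7.46 (1.24 to 13.7) and 31.6 (14.1 to 49.2), and was higher and apart at day 15 against both other groups. The remaining 5 were not apart in any comparison. The median log2 ratio of these 7 was 0.68 at day 5 and 0.26 at day 15.

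Aqp3 had an FPKM of 1544 (765 to 2323) at day 0, 1630 (761 to 2499) at day 5 and 2300 (989 to 3611) at day 15. The 3 intervals overlapped, so no difference can be called. At day 15 it was 1.49-fold higher than at day 0, with bounds that ran from 0.426-fold to 4.72-fold. It stood at place 58, 43 and 35 among the loci with a symbol. The gene lies on chromosome 4, 41092722 to 41098183 on the minus strand, with 6 exons, and 42894 bases separate its locus from that of Aqp7 on the same strand. The list of 9 markers for conjunctiva and goblet cells had 5 higher and apart at day 5 and 7 at day 15, and the others were not apart. Over all loci compared, the shares higher and apart were 3.42% and 2.91%. Muc5ac, Tff1, Spdef and Gp2 were under FPKM 1 at day 0, so that a higher value was fixed for them by the limit on low values. Agr2, Krt19 and Krt8 were above that limit at day 0 and were higher and apart at both times. The sum of the 9 was 1732, 4051 and 10492, most of it at day 15 the keratin gene Krt4, at 757 (369.5 to 1145), 2070 (679 to 3462) and 6734 (429 to 13038), which was not apart in any comparison. Without Krt4 the list summed to 975, 1981 and 3758. Krt13, another keratin of that epithelium, was at 769, 765 and 2271 and was not apart either. Their part in the Aqp3 level was not tested.

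Aqp4 had an FPKM of 1.23 (0 to 4.70) at day 0, 89.4 (26.4 to 152) at day 5 and 74.2 (23.0 to 125.5) at day 15. Day 0 was close to no signal, and both burned groups lay well above its interval. It was 72.6-fold higher at day 5 and 60.3-fold higher at day 15, with no upper bound on either fold, since the day 0 interval reaches 0. The nearest bounds were 5.62-fold and 4.89-fold from each other. Days 5 and 15 were not apart, with a log2 ratio of -0.27. Aqp4 moved from place 12016 among the loci with a symbol to place 920 and place 1194. The gene lies on chromosome 18, 15389496 to 15410982 on the minus strand. The authors' locus runs from 15361658 to 15403684, 1.96 times the annotated length, and crosses 2 non-coding genes on the other strand whose exons do not overlap those of Aqp4. Which part of that locus gave the fragments was not tested.

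Markers of tissues known for Aqp4 did not stand higher with it. Of 7 fast skeletal muscle markers compared, none was apart at day 5 and Myh4, Myh1, Myh2 and Ckm, genes of the contractile machinery and its energy supply, were lower and apart at day 15. Their sum was 117, 91.2 and 18.8. None of 4 Müller glia markers compared was apart in either comparison with day 0, with a sum of 490, 323 and 326 that was nearly all Glul, the glutamine synthetase gene (481, 319 and 319). Kcnj10, the potassium channel found beside Aqp4 in glia, was at 0.0945, 0.0801 and 0.151. Of 6 photoreceptor markers, Gnat1, the rod transducin gene, was lower and apart at day 5 and none was apart at day 15, with sums of 54.5, 21.2 and 99.1. Of the genes that anchor Aqp4 in the membrane, those of the dystrophin complex, none of 6 compared was apart in any comparison. Over all loci compared, 5.92% were apart at day 5, 4.72% at day 15 and 0.783% between the burned groups. None among 6 therefore says little about these genes. Their median log2 ratio was -0.31 at day 5 and -0.46 at day 15. Dag1, the dystroglycan gene, was at 21.7, 25.1 and 19.3.

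**Figure D3:**
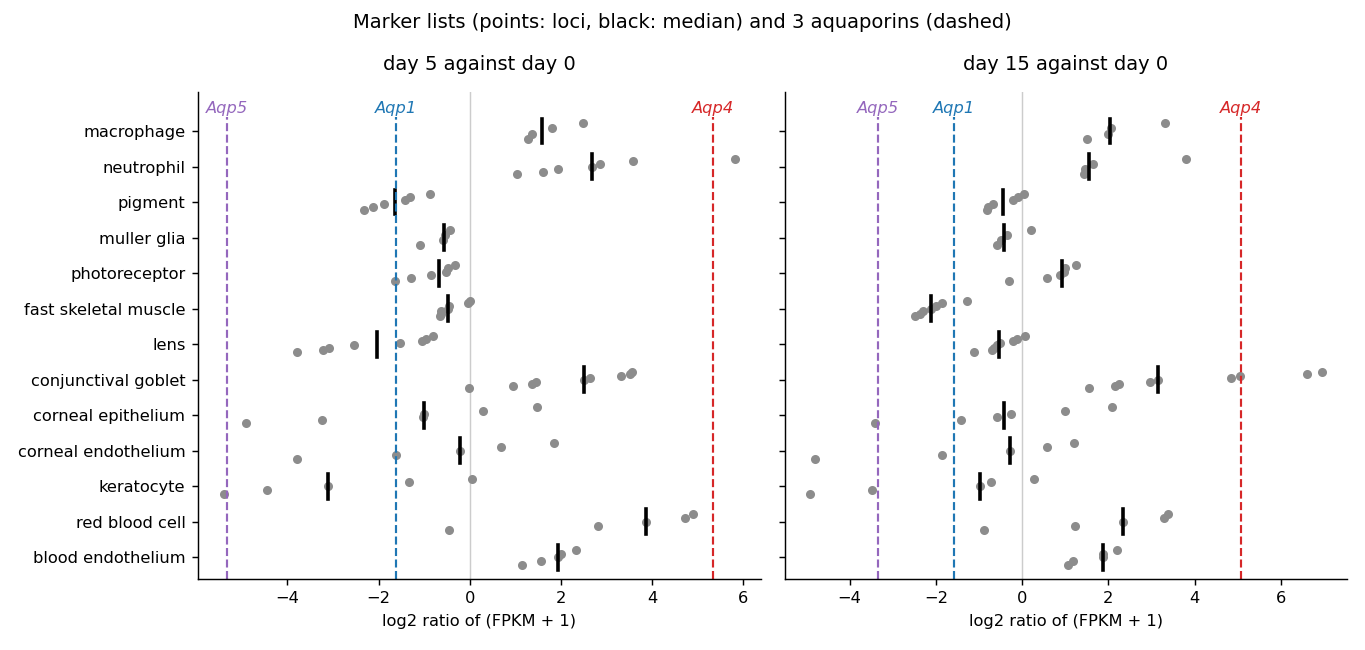
Log2 ratio of (FPKM + 1) of the loci of 13 marker lists (grey points, with the list median as a black bar) for days 5 and 15 against day 0, beside Aqp1, Aqp4 and Aqp5 (dashed lines). Aqp4, at 5.34 and 5.08, lies above every muscle, Müller glia and photoreceptor marker, and Aqp5, at -5.32, lies below every corneal epithelial marker at day 5.

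Aqp9 had an FPKM of 0.162 (0 to 0.554) at day 0, 2.74 (0 to 5.58) at day 5 and 2.74 (0.245 to 5.24) at day 15. The burned groups were alike and above day 0, but the intervals overlapped, so that it was not apart, with log2 ratios of 1.69 at both times. Only the fold and level limits, without the intervals, would call it higher. Neutrophil and macrophage markers were higher in the same samples. Of 7 neutrophil loci compared at day 5, 5 were higher and apart, and 3 of 4 at day 15, with a sum of 22.3, 408 and 104 led by S100a9 (19.5, 242 and 63.0). Over all loci compared, 3.42% were higher and apart at day 5 and 2.91% at day 15. Retnlg, Mmp8, Csf3r and Cxcr2 were under FPKM 1 at day 0, so that a higher value was fixed for them by the limit on low values. S100a8 and S100a9 were above that limit at day 0. Both were higher and apart at day 5, and S100a8 also at day 15. Of 4 macrophage markers, Lyz2 and Mrc1 were higher and apart at day 5, joined by Emr1 at day 15, and the sum was 79.0, 422 and 732. Aqp9 was level between days 5 and 15, while the neutrophil sum was lower and the macrophage sum higher at day 15. The part of these cells was not tested. The gene lies on chromosome 9, 71110659 to 71168682 on the minus strand, over a pseudogene and an antisense gene whose exons do not overlap its own.

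Aqp7 was at 0.0664 (0 to 0.206) at day 0, 0.101 (0 to 0.282) at day 5 and 0.0194 (0 to 0.0765) at day 15, too low to be compared. The fat cell genes Plin1 and Cidec were at 0 in every group, and the list's sum of 1.79, 7.19 and 17.9 was nearly all Fabp4, a fatty acid carrier that vessel cells and macrophages express as well and the only one of the list compared, higher and apart at day 15. Aqp11 was at 0.398 (0 to 0.932), 0.390 (0 to 0.866) and 0.487 (0 to 1.09), also too low. Aqp7 lies on chromosome 4, 41033074 to 41048139, and Aqp11 on chromosome 7, 97724006 to 97738289, both on the minus strand. At these levels a difference was not detectable.

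Aqp3, Aqp7 and Aqp9 also pass glycerol. Among 9 loci of glycerol handling, none was apart in any comparison, with a median log2 ratio of 0.02 at day 5 over 8 compared and 0.04 at day 15 over 7. With 5.92% of all loci apart at day 5 and 4.72% at day 15, none among so few says little about this list. Gyk, the kinase that traps glycerol in the cell, was at 132 (60.0 to 204.5), 227 (87.6 to 365.5) and 232 (103 to 361). Among 9 loci of osmotic and volume regulation compared, Stk39, a kinase that activates sodium and chloride cotransport, was higher and apart at both times, at 1.46 (0.302 to 2.62), 8.75 (4.45 to 13.1) and 9.52 (4.81 to 14.2). The other 8 were not apart, Nfat5, the transcription factor of the osmotic response, among them at 19.4, 17.3 and 13.2. Medians of that list were -0.14 at day 5 and -0.32 at day 15. Of the remaining mouse aquaporins, Aqp8, a channel of digestive organs, and Aqp12, of the pancreas, were listed at 0 in every group. Mip, the aquaporin of lens fibres, was at 0.464 (0 to 0.989), 0.235 (0 to 0.544) and 0.891 (0 to 1.84), too low to be compared.

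**Figure D4:**
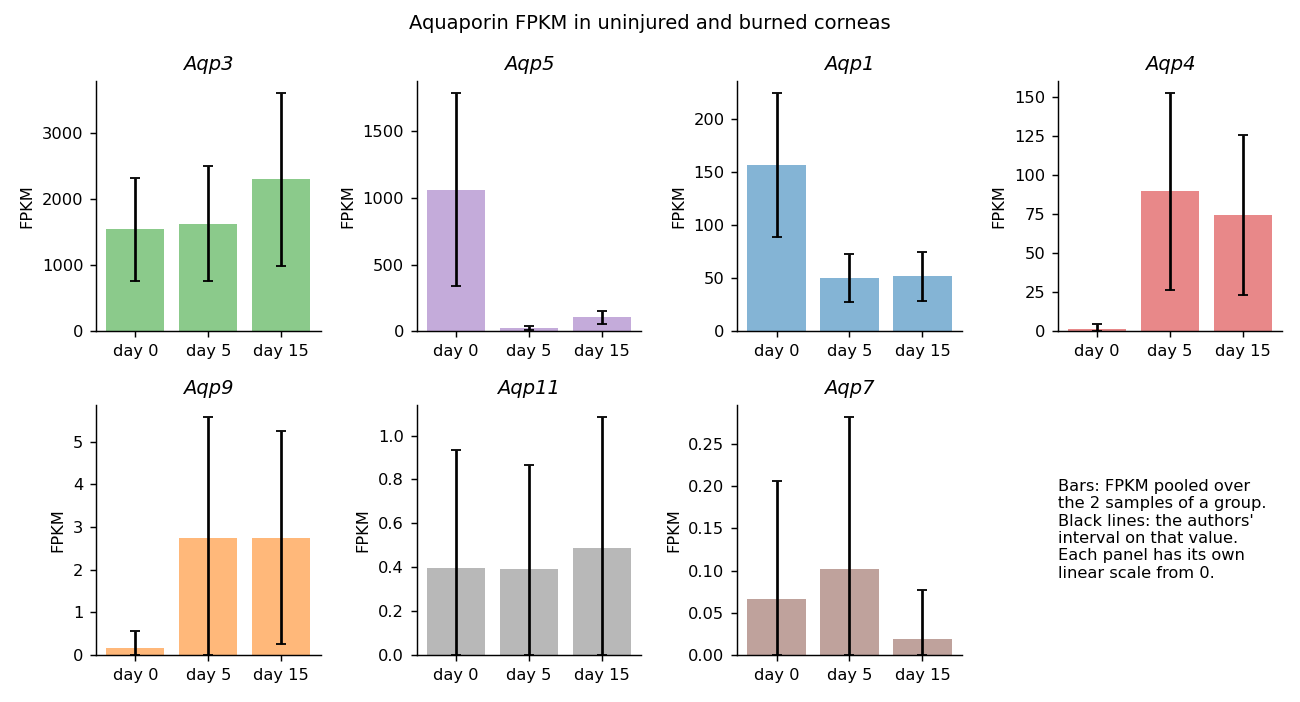
FPKM of each of the 7 aquaporins at days 0, 5 and 15 (bars, pooled over the 2 samples of a group) with the authors' interval (black lines), each panel on its own linear scale from 0. Aqp5 goes from 1062 to 25.6 and stands at 104 at day 15, Aqp1 is lower at both burned times, Aqp4 goes from 1.23 to 89.4 and 74.2, and the intervals of Aqp3, Aqp9, Aqp11 and Aqp7 overlap across days.

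FPKM is scaled to transcript length, so that levels can be set beside each other. At day 0 the order was Aqp3, Aqp5, Aqp1, Aqp4, Aqp11, Aqp9 and Aqp7, with overlapping intervals between Aqp3 and Aqp5 and among the last 4. At day 5 it was Aqp3, Aqp4, Aqp1, Aqp5, Aqp9, Aqp11 and Aqp7. Aqp3 stood clear of the rest there, and Aqp4 overlapped Aqp1, as Aqp1 did Aqp5. At day 15 Aqp5 was again second, with an interval that overlapped that of Aqp4, and Aqp4 overlapped Aqp1. Aqp3 was 1.45-fold above Aqp5 at day 0, 63.7-fold at day 5 and 22.1-fold at day 15. Of the summed FPKM of the 7 members, which was 2765 at day 0, 1799 at day 5 and 2533 at day 15, Aqp3 made up 55.9%, 90.6% and 90.8%. Aqp5 made up 38.4%, 1.42% and 4.10%, Aqp1 5.67%, 2.81% and 2.05%, and Aqp4 0.0445%, 4.97% and 2.93%.

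**Figure D5:**
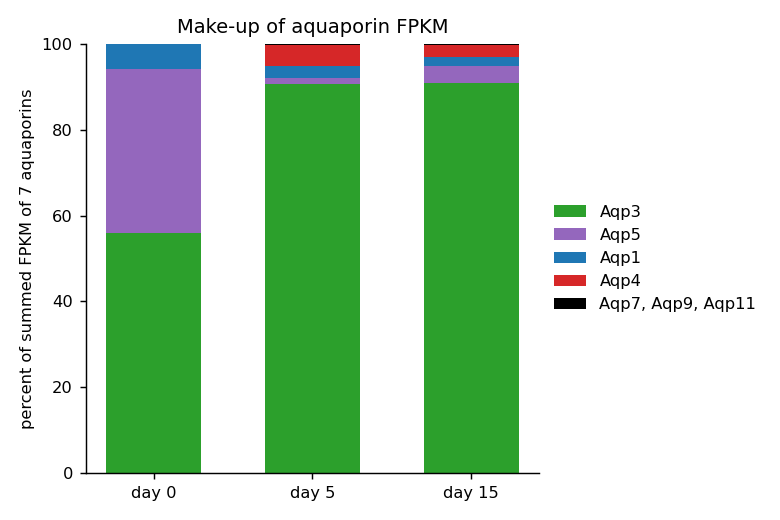
Share of each aquaporin in the summed FPKM of the 7 members at days 0, 5 and 15, in percent. Aqp3 makes up 55.9% at day 0 and 90.6% and 90.8% after the burn, where the share of Aqp5 is 1.42% and 4.10%.

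The genes most like each abundant member in pattern were found by the distance between their pairs of log2 ratios, at day 5 and day 15 against day 0, over 8839 named loci with FPKM of at least 5 in a group. The distance rests on 3 group values, of which day 0 enters both ratios, and is a description. Nearest to Aqp5 were Aldh3a1 (distance 0.42), Erich5 (0.43, at 224, 4.43 and 15.6) and Lce3a, a late cornified envelope gene (0.56, at 85.0, 1.73 and 5.23), and only 2 loci lay within 0.5. Nearest to Aqp4 were Cxcl17, a chemokine of mucosal surfaces (0.33, at 0.0866, 50.3 and 42.3), the serpin gene Serpinb2 (0.51) and Krt17, a keratin of wounded epithelia (0.54), with 1 locus within 0.5. The patterns of Aqp1 and Aqp3 were common ones. Aqp1 had 174 loci within 0.5, led by Gstk1, Art3 and Lrrfip2, and Aqp3 had 1523, led by Jkamp, H2-DMb1 and Hexa.

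The series' title names miR-204, whose 5p strand is shown here (RefSeq, GRCm38.p6, chromosome 19, 22750610 to 22750631, plus strand) with its seed, bases 2 to 8, in capitals.
mmu-miR-204-5p: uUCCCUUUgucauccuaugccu
The 7-base match to that seed, AAAGGGA, was looked for in the members' 3′ UTRs, taking the longest one annotated (GENCODE M21), which ran from 568 bases in Aqp5 to 3955 in Aqp4. It was found in 0 of 7 members, and in 15.7% of 21153 genes searched. No match says only that these letters are not in those windows.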

How the data were processed

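The authors deposited 1 gene table of FPKM values from Cuffdiff with 1 set of columns per group (FPKM, lower and upper interval bound, status), per the file headers, and 0 columns for single samples. Per the submitters' processing notes, the build was mm10 and the tools were Bowtie2 2.2.6, TopHat2 2.1.0, Cuffdiff and Cufflinks 2.2.1. The annotation, the strandedness and the level of the interval are not given in the sources used here.

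Log2 ratios were computed with a pseudocount of 1, which makes low genes look less different. Folds divide FPKM values without it, and their bounds set the interval ends against each other. The call rule was run over all loci, checked on simulated data, and read for the members. Members and lists (4 companion lists, 15 marker lists) were chosen with earlier results of these data known. Named genes are all aquaporins, companion genes apart in a comparison (up to 4 a list), the 2 most abundant markers of a list and the 3 nearest patterns. Other genes were named after their values were seen. Loci shared with a gene outside a list were left out of it. Coordinates are 1-based on mm10, with gene spans from GENCODE M21. Alternatives varied the pseudocount, the level limit, the fold, the use of intervals and the scaling. Python 3.11.15, numpy 2.4.6, pandas 2.3.3 and matplotlib 3.10.9 were used.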

Additional observations from a re-analysis of the deposited data

How the results depend on the processing

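Of 126 recomputed member ratios (6 settings for each of 21), 121 kept their call, none of those called changed direction, 3 lost the call and 2 gained it. Not apart and not compared were counted here as the same call. The 121 therefore hold every ratio of Aqp7 and Aqp11, which were too low to be compared as reported. They also hold Aqp9 at an FPKM limit of 5, where it was no longer compared. The losses all came from asking for a log2 ratio of at least 2: Aqp1 at -1.62 and -1.58 against day 0, and Aqp5 at 1.98 for day 15 against day 5, which leaves 0 members apart in that comparison instead of 1. The gains were Aqp9 at 1.69 for both times against day 0 when intervals were not used. Over all loci, the counts apart were 922 (day 5 to day 0), 717 (day 15 to day 0) and 115 (between the burned groups). They became 507, 379 and 53 with a log2 ratio of at least 2, and 3409, 2702 and 876 without the intervals. Scaling to a common median shifted FPKM by 0.09 (log2) at day 5 and 0.11 at day 15, which moved the ratios of members of low FPKM by less, and changed no member's call. No paired analysis was possible because the table has no columns for single samples, and for the same reason no replicate could be left out. Depth is not known, so that the members under FPKM 1 cannot be placed against a detection limit.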
